A study of Mus musculus with 47 samples.

Results

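Old and young male mice that received no surgery were compared for gene expression in the hippocampus. The comparison rests on 8 of the 47 libraries of the study, chosen by age, sex and control status, and on 11679 of 28032 genes, whose level averaged 5 CPM or more over these 8 libraries, CPM being reads scaled to a library of fixed size. The 4 old male controls were 18 to 22 months of age and the 4 young male controls 3 to 5 months. All were C57BL/6 males killed directly from the home cage with no cecal ligation and puncture. The protocol says that controls received neither surgery nor anesthesia, and then gives isoflurane before decapitation for mice without naming groups. A single hippocampus per mouse was sequenced as poly(A) RNA, so every value is an average over all cell types of the dissected tissue, and fewer cells of a type cannot be told apart from less RNA per cell. Ages were given as a range per group, not per mouse. Each library is labelled as its own animal, so a p-value measures the spread between mice. The wider study asked how age and sex shape the hippocampal response to sepsis, and these controls are the baseline against which old and young septic males were set.

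The hippocampus forms and retrieves memories through a circuit of dentate granule, CA3 and CA1 excitatory neurons held in check by inhibitory interneurons, and the dentate gyrus of rodents adds new neurons in adult life. Brain aging is known for a decline of this neurogenesis, for changes at glutamatergic synapses, and for a low-grade activation of microglia and astrocytes with more complement and antigen presentation. Complement is a cascade of proteins that tag material for removal, and major histocompatibility complex (MHC) class I molecules display peptides on the cell surface.

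The labels fitted the libraries where this could be read. Markers of hippocampal neurons were abundant in all 8 libraries, with a summed level of 4847 to 5757 CPM in young and 4259 to 4834 CPM in old mice for 8 excitatory neuron markers. Each library held between 18702622 and 28143705 reads as judged from the smallest step of its values. Young libraries varied more, with a median SD of 0.14 on the log2 scale against 0.11 in old libraries, and 67.9% of genes had the larger SD in young mice. Young replicate 1 stood apart through choroid plexus, the tissue that makes cerebrospinal fluid. The 16 choroid plexus markers summed to 6869 CPM in it, against 613, 140.1 and 127 CPM in the other young and 139 to 199 CPM in the old libraries. The mitochondrially encoded genes split the young libraries, with 26825 and 26146 CPM in replicates 1 and 3 and 48430 and 52128 CPM in replicates 2 and 4, around 32147 to 42767 CPM in the old.

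With limma's moderated test on log2(CPM + 1), 396 genes were higher and 587 lower in old mice at an unadjusted p below 0.01, which is called a change from here on. These were 3.39% and 5.03% of the genes tested. At a Benjamini-Hochberg adjusted p below 0.05 over all genes tested, 33 were higher and 40 lower. Most calls were small, with a median absolute log2 difference of 0.33, and 54 higher and 43 lower genes passed 0.5. The 4 old and the 4 young libraries did not overlap for 341 of the higher and 508 of the lower calls, and among all genes tested they did not overlap for 13.5%. Single libraries moved these counts. They were 230 and 308 without young replicate 2, 223 and 368 without old replicate 1 and 228 and 467 without old replicate 4, and 368 and 677 without young replicate 1. At the adjusted p, limma gave 137 and 207 without young replicate 3, but 9 and 0 without either young replicate 2 or old replicate 1, with 1818 and 1923 genes then at an unadjusted p below 0.05. Without old replicate 2, 3 or 4 it gave 9 and 2, 8 and 1, and 8 and 2.

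The change with age followed the base composition of the genes. Across the 11582 genes with a GC content in the GENCODE annotation, Spearman's rho between the log2 difference and GC content was -0.59, a description across genes that share the same libraries. In the lowest of 10 equal bins by GC content, with 31.9% to 42.6%, the median log2 difference was 0.13, with 127 genes called higher and 1 lower. In the highest bin, with 58.0% to 71.3%, it was -0.19, with 4 called higher and 261 lower. The gap between the 2 GC-richest and the 2 GC-poorest bins in median log2 deviation from the gene means was 0.18, 0.16, 0.13 and 0.08 in the young and -0.11, -0.15, -0.14 and -0.16 in the old libraries, so the groups did not overlap. Base composition of the library and age therefore cannot be told apart for genes of extreme GC content. After a correction that removes the trend from each library, 209 genes (1.8% of those with a GC content) were called higher and 216 (1.86%) lower. At the adjusted p, 14 were higher and 2 lower. Most genes described below as called after GC correction therefore passed only the unadjusted p. Of the calls without correction, 122 of 396 higher and 155 of 587 lower were called again in the same direction, while the sign was kept by 390 of 390 and 582 of 584 with a GC content. Corrected values are given below for most of the main groups and for some of the calls that the correction ended. A call given without a corrected value may therefore not hold after the correction.

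**Figure D1:**
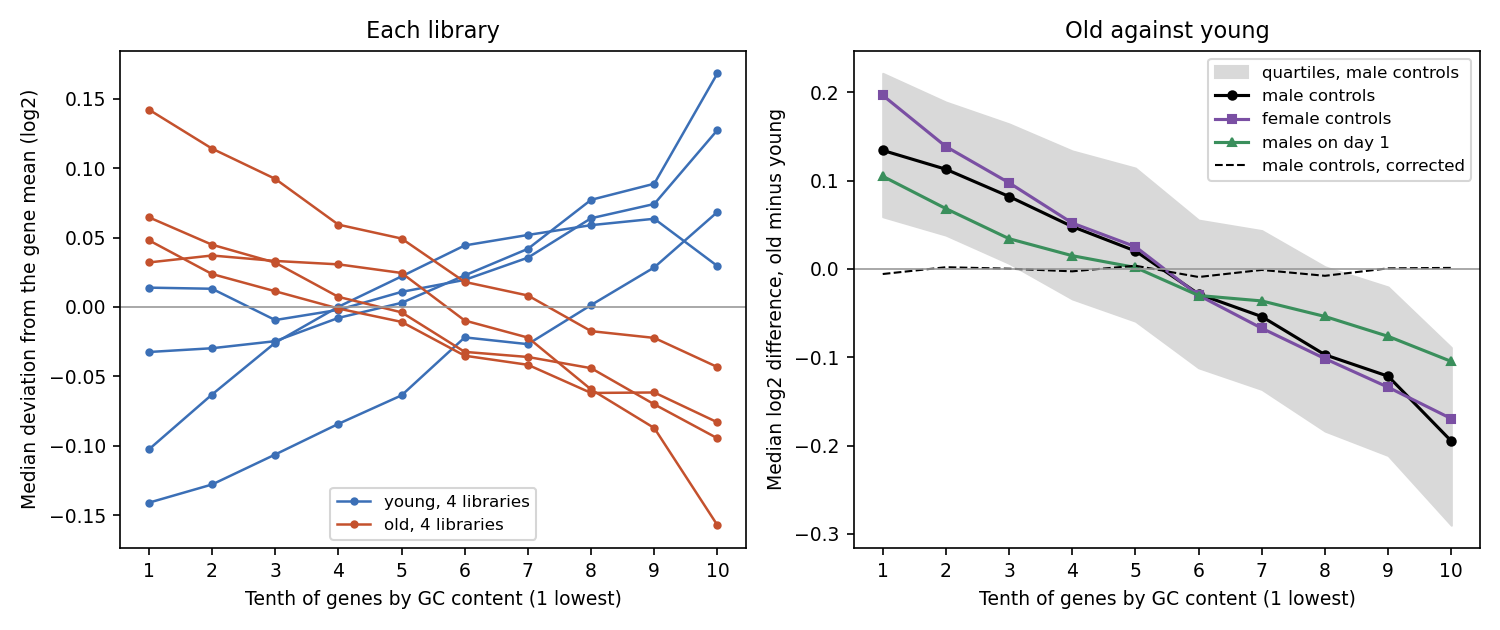
Left, the median deviation of genes from their mean over the 8 male control libraries (log2) in each of 10 bins of genes by GC content, with 1 line per library: the young lines rise and the old lines fall from low to high GC content. Right, the median log2 difference (old minus young) in each bin for male controls, with quartiles, for female controls and for males on day 1 after sepsis, and for male controls after correction, which runs along 0.

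Among genes that averaged 10 CPM or more, those that rose most were C4b, Neat1, Pisd-ps1, Ighm, Pcdhb9, Abca8a, Pisd-ps2, A830036E02Rik, Il33, Hapln2, Coro6 and Rsrp1, each without overlap between the groups. Below that level Zc3hav1, an antiviral zinc finger protein named after its values were seen, rose by 1.04 (adjusted p from limma 0.00222). The 12 genes listed first were called in every fit that left out a library and after the GC correction. C4b, which encodes complement component 4 and lies on chromosome 17 from 34728380 to 34743882, was 44.4, 44.0, 42.9 and 55.9 CPM in the young and 179.9, 168, 161 and 167 CPM in the old libraries. Every old library was thus far above the highest young library. The means were 46.8 ± 6.13 and 169 ± 7.82 CPM (SD, n = 4), a log2 difference of 1.84 with a standard error of 0.09 and the lowest adjusted p of all genes, 1.45e-06. Reads of C4b and of its close copy C4a may be split between them, and C4a was below the mean of 5 CPM.

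Neat1, a long nuclear RNA that builds paraspeckles, was at 92.5, 32.6, 59.9 and 36.4 CPM in young and 162, 132, 148 and 132 CPM in old mice. The log2 difference was 1.48 (standard error 0.26, adjusted p = 0.0418). The young libraries spread widely, and young replicate 1 was nearest to the old group. Ighm, the heavy chain of immunoglobulin M, was at 6.38, 8.54, 8.33 and 8.22 CPM in young and 19.3, 15.96, 18.0 and 17.2 CPM in old mice, with a log2 difference of 1.07 (standard error 0.11, adjusted p = 0.00148). Of the other 6 B cell and plasma cell markers in the file, all averaged below 1 CPM, so Ighm carries the summed level of the list, 7.48 to 9.37 CPM in young and 17.0 to 20.5 CPM in old libraries. Il33, an alarmin cytokine held in the nuclei of oligodendrocytes and astrocytes, was at 26.2 to 31.6 CPM in young and 47.1 to 53.3 CPM in old mice, a log2 difference of 0.74 (standard error 0.08, adjusted p = 0.00222).

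Abca8a, a transporter of the ATP-binding cassette family, was at 8.40 to 9.78 CPM in young and 16.7 to 20.2 CPM in old mice, with a log2 difference of 0.92 (standard error 0.09, adjusted p = 0.00148). Hapln2, which links hyaluronan to proteoglycans at the nodes of myelinated axons, had a log2 difference of 0.73 (standard error 0.13, adjusted p = 0.0418). The pseudogenes Pisd-ps1 and Pisd-ps2 differed by 1.19 and 0.84 on the log2 scale. They resemble Pisd, which makes phosphatidylethanolamine in mitochondria, and reads may be shared among the 3. Coro6 and A830036E02Rik differed by 0.71 and 0.76, with adjusted p of 0.0643 and 0.054. A830036E02Rik shares 16.7% of its exon bases with Krt12 and is uncertain, since it is not known whether reads were counted by strand.

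**Figure D2:**
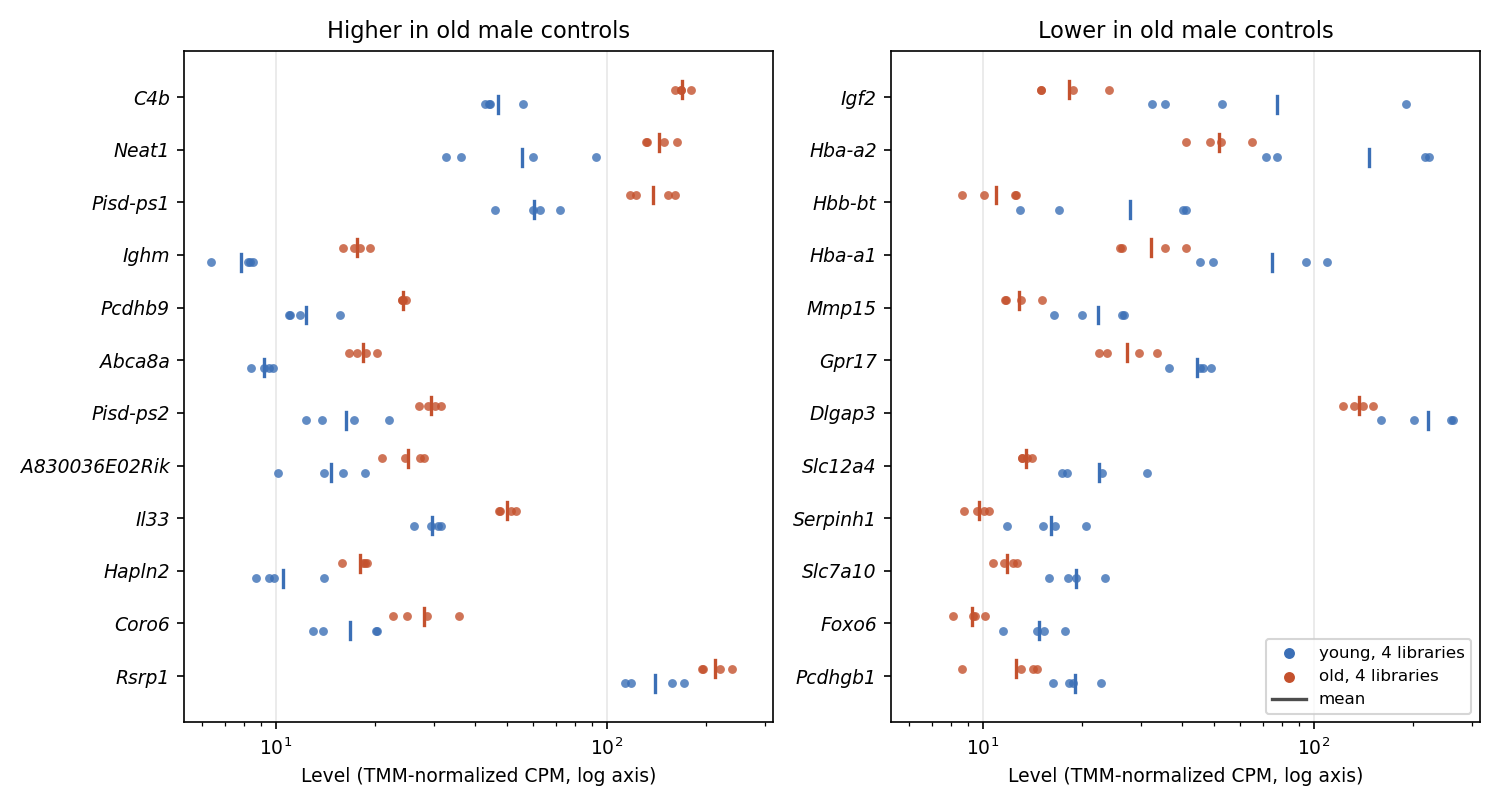
Level in CPM (log axis) of the 12 genes called with the largest positive and the 12 with the largest negative log2 difference, out of those that averaged 10 CPM or more and whose groups did not overlap. Each point is 1 of the 4 young or 4 old male control libraries and each bar a group mean, with C4b showing the widest separation relative to its spread and Igf2 resting partly on 1 young library at 189.8 CPM.

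Complement apart from C4b did not pass the test. Of 22 complement genes, 8 were tested, 1 rose and 0 fell by limma, with 6 of the 8 above 0. C1qa and C1qb, subunits of the initiator C1q made by microglia, differed by 0.19 and 0.17 on the log2 scale (adjusted p = 0.452 and 0.484), with overlapping groups. The list had a median log2 difference of 0.15, and 0.25 after GC correction, against 0.00 over all genes tested. C3 was among the genes below the mean of 5 CPM.

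Among genes of activated microglia, 17 of 26 were tested, and 4 rose and 0 fell by limma, with 11 of 17 above 0 and a median of 0.17. After GC correction 6 rose and the median was 0.20. Ctss, a lysosomal cysteine protease of microglia, was 27.2, 41.3, 33.3 and 32.4 CPM in young and 55.6, 50.2, 47.4 and 48.7 CPM in old mice, a log2 difference of 0.59 (standard error 0.11, adjusted p = 0.0419). The groups did not overlap, and Ctss was called in every fit that left out a library. Gpnmb, a glycoprotein of lipid-laden phagocytes, rose by 0.63 from 4.40 ± 0.528 to 7.36 ± 0.799 CPM (SD, n = 4, adjusted p from limma 0.0419). Lyz2, a lysozyme of myeloid cells, rose by 0.72 from 5.23 ± 1.13 to 9.31 ± 2.31 CPM (SD, n = 4, adjusted p from limma 0.0643). Trem2, the microglial lipid receptor, rose by 0.39 (adjusted p = 0.099) but was not called without young replicate 1 (0.33), young replicate 3 (0.36), old replicate 1 (0.32) or old replicate 4 (0.41). None of the 10 tested markers of resting microglia was called by limma, with 1 called after GC correction and a median of 0.17. Their summed level was 253 to 344 CPM in young and 299 to 344 CPM in old mice, so the groups overlapped. Of 32 lysosomal genes, 2 rose and 1 fell, with a median of 0.00. Without young replicate 1, 2 or 3 or old replicate 1, 2 or 4 just 1 lysosomal gene rose.

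MHC class I genes rose in part. Of 20 genes of class I presentation 12 were tested, and 4 rose (B2m, H2-D1, H2-K1 and H2-T23) and 0 fell by limma, with a median of 0.07, or 0.13 after GC correction. H2-D1, a classical heavy chain, was 22.7, 24.6, 29.6 and 25.8 CPM in young and 40.7, 33.1, 39.7 and 35.1 CPM in old mice, with a log2 difference of 0.52 (standard error 0.10, adjusted p = 0.0419). It alone of the 4 was called without each library in turn, and similar class I genes can share its reads. B2m, the light chain of class I molecules, was at 29.0, 38.6, 26.9 and 36.9 CPM in young and 48.2, 36.4, 43.6 and 52.4 CPM in old mice, so that the groups overlapped, and its log2 difference of 0.45 became 0.31 and was not called after GC correction. The list had 1 call without old replicate 3, 1 without old replicate 4 and 2 without young replicate 1, 2 or 3 or old replicate 1. For MHC class II, 1 of 7 genes was tested, H2-DMa, with means of 9.74 CPM in young and 9.68 CPM in old mice.

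Of 37 interferon-responsive genes 10 were tested, and 3 rose, Ifit3 and Irgm1 among them, and 0 fell by limma, with 8 of 10 above 0 and a median of 0.16. After GC correction 2 rose and the median was 0.17. Ifit3, which restrains viral RNA, was 3.12, 4.55, 4.87 and 6.30 CPM in young and 6.13, 11.6, 8.64 and 10.3 CPM in old mice. The log2 difference was 0.83 (standard error 0.20, adjusted p = 0.0664), and the lowest old library was just below the highest young one. Irgm1, an interferon-induced GTPase that acts on autophagy, had 6.58, 6.95, 5.22 and 7.73 CPM in young and 8.57, 10.2, 9.85 and 10.6 CPM in old mice without overlap, a log2 difference of 0.51 (adjusted p = 0.065).

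Interferon regulatory factors bind short repeats of the letters TTTC. The promoters of Ifit3, Irgm1 and B2m are shown because these members of the interferon and MHC class I lists rose and hold the motif TTTC, any 2 bases and TTTC again, searched on both strands and marked in capitals, both genes and motif having been chosen after the values were seen. The sequences come from RefSeq on GRCm38.p6, from 250 bases before to 50 bases after the start site, and read 5′ to 3′ along the gene. Ifit3 lies at chr19:34583279-34583578 on the plus strand, Irgm1 at chr11:48871371-48871670 on the minus strand and B2m at chr2:122147437-122147736 on the plus strand.
Ifit3: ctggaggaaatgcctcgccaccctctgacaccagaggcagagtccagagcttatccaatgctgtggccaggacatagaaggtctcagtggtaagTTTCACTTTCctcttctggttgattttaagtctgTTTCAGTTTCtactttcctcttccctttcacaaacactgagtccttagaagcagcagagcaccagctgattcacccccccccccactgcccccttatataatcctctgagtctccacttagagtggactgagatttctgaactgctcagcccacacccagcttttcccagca
Irgm1: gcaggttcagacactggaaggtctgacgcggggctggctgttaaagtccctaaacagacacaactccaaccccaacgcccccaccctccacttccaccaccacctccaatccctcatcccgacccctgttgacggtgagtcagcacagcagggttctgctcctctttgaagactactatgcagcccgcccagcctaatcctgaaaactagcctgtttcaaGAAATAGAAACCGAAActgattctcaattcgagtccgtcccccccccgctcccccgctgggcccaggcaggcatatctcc
B2m: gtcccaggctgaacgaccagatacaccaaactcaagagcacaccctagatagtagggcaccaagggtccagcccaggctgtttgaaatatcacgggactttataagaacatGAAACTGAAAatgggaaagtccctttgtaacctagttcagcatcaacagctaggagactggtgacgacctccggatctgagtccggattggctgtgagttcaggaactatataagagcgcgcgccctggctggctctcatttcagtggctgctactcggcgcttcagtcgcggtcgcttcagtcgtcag
Ifit3 has 2 motifs as given, which begin 156 and 122 bases before the start site. Irgm1 has 2 overlapping motifs as the reverse complement, 30 and 24 bases before it, and B2m has 1 as the reverse complement, 139 bases before it. Of the 7 called genes of both lists, 6 had a promoter in the table and 4 held the motif (the fourth is H2-T23). Of the 15 other tested genes of these lists 13 had a promoter and 5 held it, and of all 32851 promoters 3.44% did. The match of letters is a description, and binding was not measured.

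Astrocyte genes changed in part. Of 22 genes of reactive astrocytes 11 were tested, and 3 rose (C4b, H2-T23 and Osmr) and 0 fell by limma, with a median of 0.10. After GC correction 4 rose and the median was 0.14. The 22 genes summed to 543 to 682 CPM in young and 771 to 835 CPM in old libraries, without overlap. C4b is among them, and without C4b the summed levels of the groups overlap. Osmr, the receptor of oncostatin M, was 4.33, 3.91, 5.26 and 3.90 CPM in young and 6.61, 7.07, 5.85 and 6.70 CPM in old mice, and the log2 difference was 0.50 (adjusted p = 0.0664). Gfap, the intermediate filament of astrocytes, was at 294 to 399 CPM in young and 396 to 429 CPM in old mice, and its log2 difference of 0.23 was not called (adjusted p = 0.18). Serpina3n differed by 0.23 (adjusted p = 0.341). S100b, a calcium-binding protein of astrocytes, rose by 0.39 from 84.3 ± 9.44 to 110.4 ± 9.79 CPM (SD, n = 4, adjusted p from limma 0.0661), and Slc7a10, the astrocytic transporter of alanine, serine and cysteine, fell by 0.64 from 19.1 ± 3.19 to 11.8 ± 0.894 CPM (SD, n = 4, adjusted p from limma 0.0418). Of Slc7a10's exon bases 17.9% lie in Lrp3. The 11 astrocyte markers had 1 call in each direction, or 2 higher and 0 lower after GC correction. Their summed level overlapped between the groups.

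**Figure D3:**
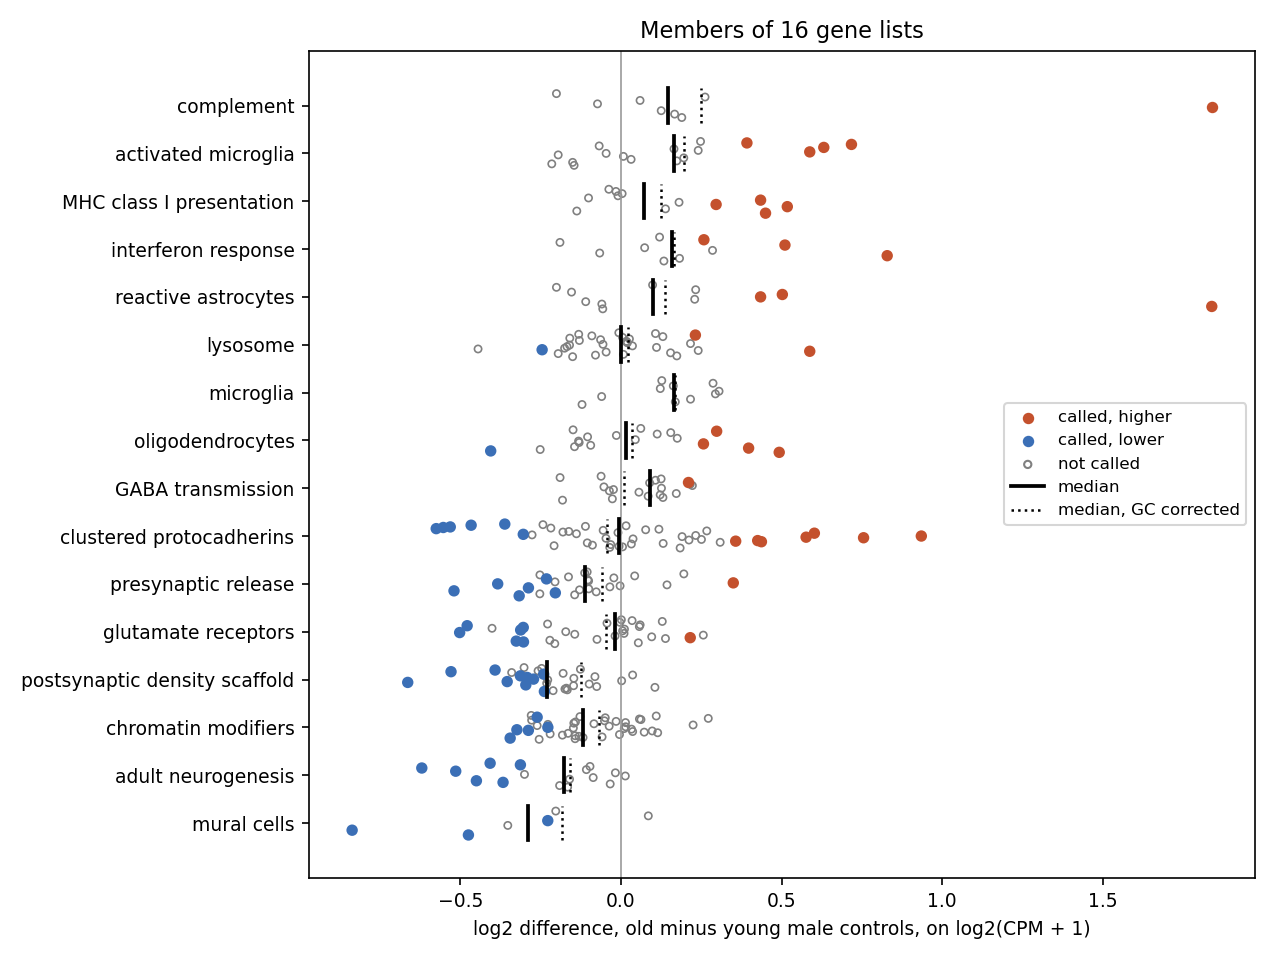
Log2 difference (old minus young male controls) of each tested member of the gene lists named at the left, on log2(CPM + 1). Filled points were called higher or lower, open points were not, and bars give the list's median without (solid) and with (dotted) the GC correction: immune lists lie slightly above 0 and synaptic and neurogenesis lists below it, and with the correction the medians of the postsynaptic and presynaptic lists lie nearer to 0.

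Genes of adult neurogenesis were lower. Of 26 genes 16 were tested, and 0 rose and 6 fell by limma (Dpysl3, Dpysl5, Sox4, Sox11, Tubb2b and Tubb3), with 15 of 16 below 0 and a median of -0.18, or -0.16 after GC correction. The summed level of the list was 964 to 1191 CPM in young and 849.9 to 888 CPM in old libraries, without overlap. A large part of this sum is Tubb3, at 217 to 275 CPM in young and 179 to 216 CPM in old libraries. All 6 genes that fell were called in every fit that left out a library. Dpysl5, a collapsin response mediator of immature neurons, was 34.6, 37.7, 40.6 and 32.1 CPM in young and 24.6, 27.5, 25.7 and 27.0 CPM in old mice, a log2 difference of -0.45 (standard error 0.08, adjusted p = 0.0419). Sox11, a transcription factor of neuroblasts, was 10.6, 11.1, 8.57 and 12.2 CPM in young and 7.11, 7.03, 6.43 and 7.82 CPM in old mice, a log2 difference of -0.51 (adjusted p = 0.0608). Neither gene's groups overlapped. Tubb3, a neuronal tubulin also used by mature neurons, fell by 0.41 on the log2 scale, was -0.26 after GC correction and was then not called. Sox4 shares 54.6% of its exon bases with Gm26735 and is uncertain. Dcx, the usual marker of migrating neuroblasts, was 12.6, 10.5, 11.0 and 11.7 CPM in young and 10.7, 10.4, 13.3 and 10.5 CPM in old mice, overlapped fully and was not called (log2 difference -0.03). It is named here after its values were seen.

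Scaffold genes of the postsynaptic density fell in part. Summed markers of hippocampal excitatory neurons were also lower in old libraries, at the levels given above. The groups only just failed to overlap, with 4847 CPM in young replicate 1 and 4834 CPM in old replicate 4. Among these markers, Camk2a is also in the scaffold list and Slc17a7 in the presynaptic list, so the sum partly repeats synaptic genes. Without Slc17a7 the summed levels of the groups overlap. The summed markers of all neurons overlapped, at 4403 to 5123 CPM in young and 4857 to 5264 CPM in old libraries. They include Snap25 and Syt1 of the presynaptic list. The part of cell composition in the synaptic values was not tested. Of 30 scaffold genes tested, 0 rose and 10 fell by limma, 27 lay below 0, and the median was -0.23. After GC correction 4 fell and the median was -0.12. Without single libraries the number that fell was 4 (young replicate 2), 5 (old replicate 3) and 6 (old replicate 1) at the lowest. The members called without every library in turn and after GC correction were Dlgap3 and Dlgap4, which tie the scaffold PSD-95 to Shank proteins. Dlgap3 was 201, 263, 159.6 and 261 CPM in young and 151, 132, 123 and 141 CPM in old mice, without overlap though young replicate 3 lay close to old replicate 1. Its log2 difference was -0.66 (standard error 0.14, adjusted p = 0.0596), or -0.38 after GC correction. Shank1, a scaffold of dendritic spines, was at 642, 669, 457 and 529.8 CPM in young and 451, 399, 345 and 385 CPM in old mice. Its log2 difference of -0.53 (adjusted p = 0.0643) became -0.28 and was not called after the correction, and Agap2 turned from -0.24 to 0.02.

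Glutamate receptor genes changed in a few members. Of 29 tested, 1 rose (Gria3) and 6 fell by limma (Cacng8, Cnih2, Grik5, Grin2b, Grin3a and Grm2), with a median of -0.02, or -0.05 after GC correction. Grik5, a kainate receptor subunit, was 196, 228, 199 and 216 CPM in young and 155, 149, 137 and 150.1 CPM in old mice, far apart, with a log2 difference of -0.50 (standard error 0.07, adjusted p = 0.0181). Grm2, a presynaptic metabotropic receptor, was 49.7, 57.8, 54.6 and 50.9 CPM in young and 38.0, 35.4, 35.3 and 43.3 CPM in old mice, a log2 difference of -0.48 (standard error 0.08, adjusted p = 0.0418). Grin2b, an NMDA receptor subunit, was 630.2, 595, 542 and 544 CPM in young and 465, 485, 474 and 435 CPM in old mice, also without overlap, a log2 difference of -0.31 (adjusted p = 0.0664). Grin3a fell by 0.30 (adjusted p = 0.0643). These 4 were called without every library in turn and after GC correction, whereas Grin2a, the other major NMDA receptor subunit, differed by 0.01. Cacng8, Cnih2 and Gria3 were each called in 2 of the 8 fits that left out a library and not after GC correction, at -0.03, -0.09 and 0.09.

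Of 25 presynaptic genes 1 rose and 6 fell by limma, with a median of -0.11. After GC correction 2 of the 7 were called and the median was -0.06. The number that fell was 1 without young replicate 2, old replicate 1 or old replicate 4, 2 without young replicate 4 or old replicate 3, and 3 without old replicate 2. Nrxn2, an adhesion molecule of presynaptic endings, was 264, 323, 215 and 294 CPM in young and 197, 176, 182 and 201 CPM in old mice, a log2 difference of -0.52 (standard error 0.11, adjusted p = 0.0588), or -0.29 after GC correction. Snap25, a core protein of vesicle fusion, rose from 952 ± 40.1 to 1218 ± 126 CPM (SD, n = 4, log2 difference 0.35, adjusted p from limma 0.0692) but was not called at 0.22 after GC correction. Of 19 genes of GABA transmission, 1 rose (Gad1, which makes GABA, by 0.21, called only without young replicate 4 or old replicate 2 when a library was left out) and 0 fell by limma, and the median was 0.09, or 0.01 after it. The 13 synaptic genes that the study singled out, partly on these libraries and therefore no independent evidence, had 0 called higher and 7 called lower by limma, with a median of -0.27, and 4 lower after GC correction. Without young replicate 2 or 4 or old replicate 1 there were 4 lower. The 15 immune genes that it singled out in the same way had 10 tested, 3 higher (C4b, Ctss and Trem2) and 1 lower (Il6ra, a subunit of the interleukin 6 receptor, at -0.46).

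Clustered protocadherins, which give each neuron its own surface code, changed in both directions. Of 57 genes 43 were tested, 7 rose and 6 fell, and the median was -0.01. The calls that rose were 6 genes of the beta cluster and Pcdhga2, and those that fell were all of the gamma cluster. Pcdhb9 was 11.0, 11.0, 15.6 and 11.8 CPM in young and 24.1, 24.8, 24.3 and 24.1 CPM in old mice, a log2 difference of 0.94 (standard error 0.11, adjusted p = 0.00277). Pcdhga2 was at 21.9 to 27.1 CPM in young and 35.4 to 40.1 CPM in old mice, a log2 difference of 0.60 (standard error 0.08, adjusted p = 0.012). Pcdhgb5 fell by 0.53 from 13.04 ± 1.57 to 8.69 ± 0.577 CPM (SD, n = 4, adjusted p from limma 0.0419) and Pcdhgc3 fell by 0.47 (adjusted p = 0.0419). Gamma members share their last exons, and 45.1% of the exon bases of Pcdhga2 and 31.5% of those of Pcdhgb5 lie in Pcdhgc4, so their counts cannot be assigned with certainty. After GC correction 5 rose and 6 fell, and Pcdhb13, Pcdhb14 and Pcdhb16 were no longer called, at 0.36, 0.20 and 0.31.

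Markers of myelinating cells and of their precursors were also examined. Of 18 oligodendrocyte markers 4 rose and 1 fell, with a median of 0.02, and without old replicate 1 or 3 just 1 rose and without young replicate 1 or 2 just 2 did. After GC correction 2 rose and 2 fell. Of 11 precursor markers 0 rose and 3 fell by limma (C1ql1, Cspg4 and Gpr17), with a median of -0.09, and 1 fell without young replicate 1 or 2 or old replicate 1 or 3. After GC correction C1ql1 and Cspg4 were not called, at -0.11 and -0.15. Gpr17, a receptor of newly committed oligodendrocytes, was 45.4, 46.3, 48.9 and 36.5 CPM in young and 29.6, 33.5, 23.7 and 22.5 CPM in old mice without overlap. Its log2 difference was -0.69 (standard error 0.13, adjusted p = 0.0419), and it was the one precursor marker called without every library in turn and after GC correction. The adjusted p of Gpr17 from limma after that correction was 0.133. Ermn, a cytoskeletal protein of mature myelin, rose by 0.40 from 42.4 ± 5.27 to 56.0 ± 4.97 CPM (SD, n = 4, adjusted p from limma 0.0665), while Cldn11, the claudin of the myelin sheath, fell by 0.41 from 127 ± 13.4 to 95.2 ± 6.90 CPM (SD, n = 4, adjusted p from limma 0.0605). Summed levels of both marker lists overlapped between the groups.

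Neuronal subtype markers were examined as well. Of 6 CA1 markers 3 fell, of 8 CA2 and CA3 markers 2 fell (0 by limma without young replicate 3 and 1 without young replicate 2 or 4 or old replicate 1 or 3), and of 7 dentate granule markers 1 rose, Stxbp6, by 0.48 (adjusted p = 0.0418). After GC correction 1 CA1 marker fell and 0 of CA2 and CA3 by limma. The summed levels were lower without overlap for CA1, at 533 to 628 CPM in young and 464 to 494 CPM in old libraries, and for CA2 and CA3, at 302 to 323 CPM and 261 to 301 CPM. For CA2 and CA3 the gap was small, with 301.7 CPM in young replicate 1 and 300.9 CPM in old replicate 4. Homer3, a member of the CA2 and CA3 list, is also in the scaffold list, and without Homer3 these sums overlap. Wfs1, an endoplasmic reticulum protein abundant in CA1, was 136, 137, 156 and 151 CPM in young and 113, 98.9, 93.2 and 119 CPM in old mice, a log2 difference of -0.45 (standard error 0.09, adjusted p = 0.0446). Among interneuron genes, Npy, neuropeptide Y, rose by 0.41 (adjusted p = 0.0729), though at 0.34 it was not called without old replicate 1, and Reln, the secreted protein reelin, fell by 0.40 from 93.5 ± 2.92 to 71.2 ± 9.26 CPM (SD, n = 4, adjusted p from limma 0.0608). Nptx2, an activity-regulated pentraxin of excitatory synapses, was the 1 of 18 immediate early and activity genes that was called, at -0.43 (adjusted p = 0.0419). Of 41 chromatin modifiers 0 rose and 5 fell by limma, with a median of -0.12, and 1 fell after GC correction. Without young replicate 2 it was 1, without old replicate 3 or 4 it was 3 and without young replicate 4 it was 8.

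Some of the largest decreases were of smooth muscle, fibroblast and blood genes. Of 6 tested mural markers 3 fell, of 4 meningeal 2 and of 4 blood markers 3, while 0 of 10 endothelial markers was called by limma and 1 after GC correction, with sums of 199.9 to 261 CPM in young and 199.9 to 224 CPM in old libraries. Myh11, the myosin of smooth muscle, was 9.82, 11.4, 10.7 and 14.7 CPM in young and 4.60, 7.16, 5.65 and 6.98 CPM in old mice, a log2 difference of -0.84 (standard error 0.15, adjusted p = 0.0418). Col1a2, a chain of type I collagen made by fibroblasts, was 15.2, 6.83, 6.82 and 10.6 CPM in young and 3.51, 2.48, 3.77 and 3.37 CPM in old mice, a log2 difference of -1.28 (standard error 0.22, adjusted p = 0.0418). Young replicate 1 was highest for Col1a2 and for Igf2, a growth factor made mainly by meninges and choroid plexus, which was 189.8, 35.4, 32.4 and 52.9 CPM in young and 18.8, 15.0, 24.1 and 15.0 CPM in old mice. The log2 difference of Igf2 was -1.66 (standard error 0.44, adjusted p = 0.0744), and -1.10 without young replicate 1, still called. Its exon bases lie to 62.8% in Gm49394.

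The 9 meningeal fibroblast markers summed to 286, 109, 108 and 136 CPM in young and 75.4, 77.3, 91.7 and 74.6 CPM in old libraries, without overlap, and Dcn and Igf2 made up most of it. The 8 mural cell markers summed to 167 to 228 CPM in young and 161 to 182 CPM in old libraries, with overlap. The α-globin gene Hba-a2 was 77.5, 217, 71.9 and 223 CPM in young and 41.1, 48.4, 64.9 and 52.4 CPM in old mice, a log2 difference of -1.31 (standard error 0.34, adjusted p = 0.0722), and Hba-a1, which is nearly identical to it, fell with it by 1.11. Young replicates 2 and 4 were far above the other libraries for both. The 5 red blood cell markers summed to 219.5, 614, 222 and 621 CPM in young and 134, 163, 211 and 149 CPM in old libraries. Hbb-bt, at -1.12, was not called without young replicate 2 (-0.88), young replicate 4 (-0.89), old replicate 1 (-1.02) or old replicate 4 (-1.09). Of 9 tested choroid plexus markers none was called by limma or after GC correction, 1 was without young replicate 4, all lay below 0, and their median of -1.58 was -0.53 at the smallest and -2.08 at the largest when a library was left out. Whether the amount of blood, meninges or choroid plexus dissected with the tissue has a part in these values was not tested.

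**Figure D4:**
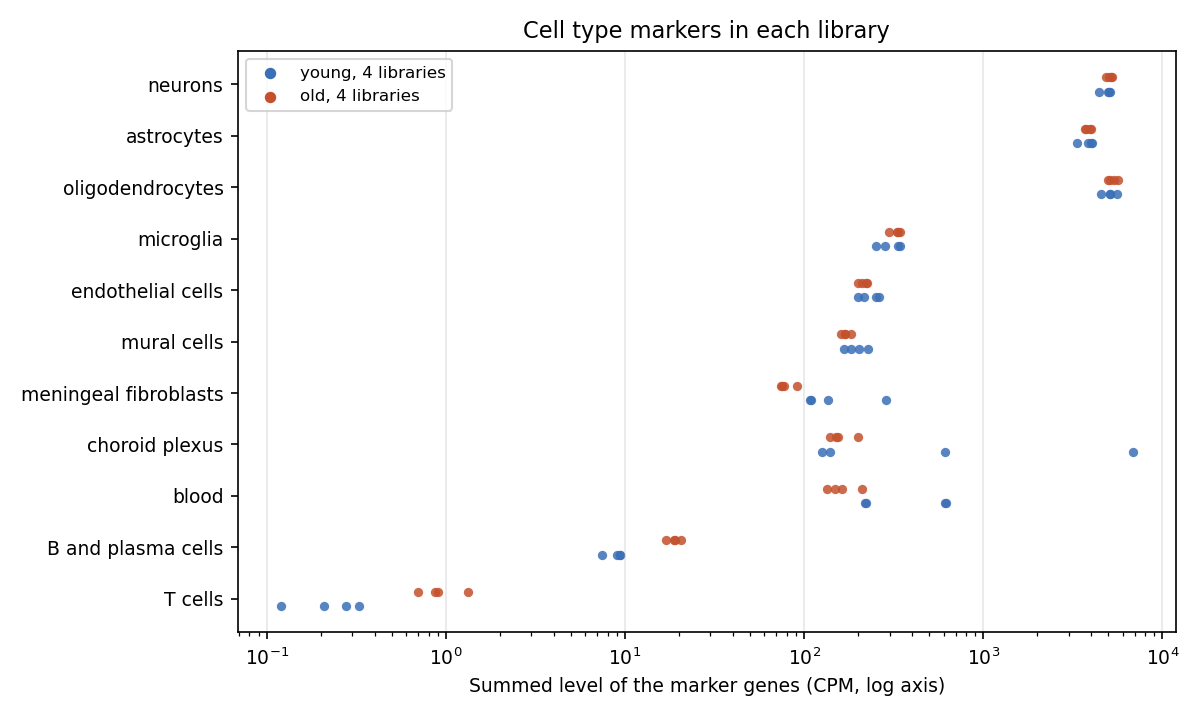
Summed level in CPM (log axis) of the marker genes of each cell type in the 4 young and the 4 old male control libraries. The sums for general neuron, astrocyte, oligodendrocyte and microglia markers overlap between the groups, meningeal and blood sums are lower in old libraries, choroid plexus stands out in young replicate 1, the B cell sum is almost all Ighm and the T cell sums are near or below 1 CPM.

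Other large decreases were Mmp15, Dlgap3, Slc12a4, Serpinh1, Slc7a10, Foxo6 and Pcdhgb1, at log2 differences from -0.73 to -0.57. Pcdhgb1, 54.6% of whose exon bases lie in Pcdhga4, was not called without young replicate 2 (-0.49). Mmp15, a membrane-bound matrix protease, was at 16.4 to 26.7 CPM in young and 11.7 to 15.1 CPM in old mice, with an adjusted p of 0.0528. Serpinh1, a collagen chaperone, was 20.5, 16.5, 15.2 and 11.9 CPM in young and 8.78, 9.64, 10.4 and 10.1 CPM in old mice, and young replicate 1 was again the highest. Foxo6, a forkhead factor expressed in the hippocampus and of 69.1% GC, went from 14.8 ± 2.56 to 9.29 ± 0.859 CPM (SD, n = 4), a log2 difference of -0.61 that became -0.24 and was not called after GC correction. Several groups known from the aging literature showed no or few calls. Of 10 senescence and p53 genes 1 was called, Cdkn1a, which fell by 0.51 (adjusted p = 0.0672), and no gene was called by limma among 18 circadian clock genes, 20 endoplasmic reticulum chaperones and 79 cytosolic ribosomal proteins, with medians of 0.04, -0.05 and -0.03. Without young replicate 4, 1 clock gene fell and 4 ribosomal genes rose, and without young replicate 1 or 3, 2 ribosomal genes fell. Among 74 nuclear respiratory chain genes 1 fell, with a median of -0.02, while 4 fell without young replicate 3, 2 without old replicate 3 and 0 by limma without young replicate 1 or old replicate 2.

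Old and young mice were also compared in 2 other sets of 8 libraries that share none with the male controls. One set is the female controls. The other is males killed 1 day after cecal ligation and puncture, which also received buprenorphine, the antibiotic imipenem and cone restraint. The day 1 set thus compares ages among operated and treated mice. In female controls 165 genes (1.41%) were called, and in old against young males 1 day after sepsis 399 (3.42%). Single libraries moved both. The female count was 77 and 79 without old replicates 1 and 2, and 248 to 265 without young replicate 2 or 3 or old replicate 4. The day 1 count was 208 and 254 without old replicates 1 and 2, and 263 and 665 without young replicates 2 and 3. With all 12 groups in 1 fit they were 721 and 205. Of the 983 male calls, 944 (96.0%) had the same sign in female controls, against 74.3% of all genes tested, and 941 (95.7%) in males on day 1, against 73.4%. The differences followed GC content there too, with Spearman's rho across genes of -0.63 and -0.48. After the correction in each set, 86.8% of the calls had the same sign in females, against 64.4% of all genes, and 91.8% on day 1, against 65.9%. Called in the same direction as in male controls were 43 higher and 19 lower genes in females, 62 and 89 on day 1, and 22 and 7 in both.

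C4b differed by 2.26 in female controls (adjusted p = 0.000334) and by 0.93 on day 1 (adjusted p = 0.0272), when young septic males were already at 79.7 to 116 CPM. Ighm differed by 1.07 and 1.62, Il33 by 0.63 and 0.57, Ctss by 0.93 and 0.43 and Gpr17 by -0.82 and -0.95 in the 2 sets, each of them called there. Pcdhb9 and Pcdhga2 were also called in both, at 0.61 and 0.79 in females and 0.87 and 0.68 on day 1. Dpysl5 differed by -0.53 and -0.32. Hba-a2 differed by 0.00 in females and -0.41 on day 1, Igf2 by -0.45 and -0.98, Grin2b by 0.00 and -0.06, and H2-D1 by 0.70 and 0.00, none of them called there. Of the 4 glutamate receptor genes that held in male controls, none was called in females or on day 1 by limma. The interaction of age and sex was not called for Hba-a2, Igf2, Grin2b or H2-D1, and a difference between day 1 and controls was not tested.

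**Figure D5:**
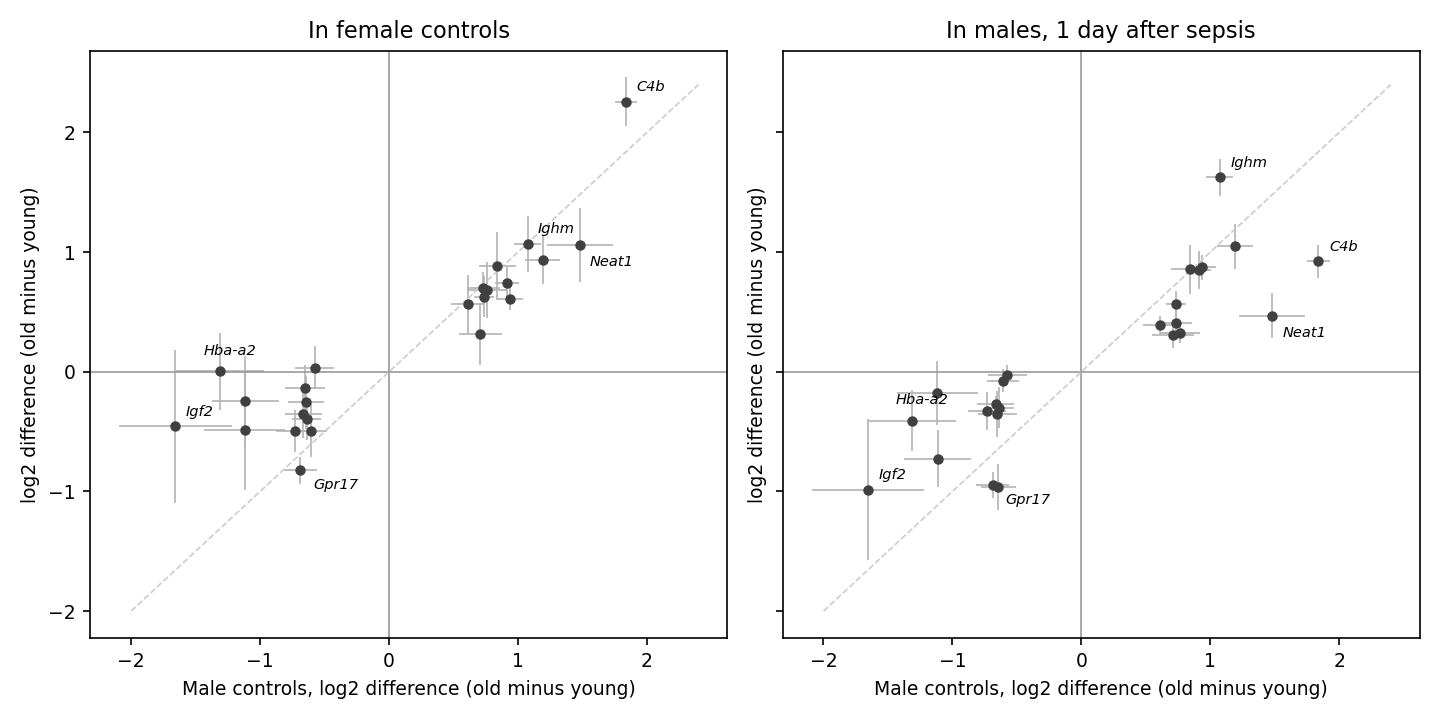
Log2 difference (old minus young, with standard errors) of the 24 genes with the largest changes in male controls (x axis) against that in female controls (left) and in males 1 day after sepsis (right), with a dashed line of equal change. The genes that rose lie above 0 in both, C4b above the line in females and below it on day 1, while Igf2 and the hemoglobin genes lie closer to 0 in females, with wide errors.

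The interaction of age and sex over the 16 control libraries was called for 35 genes (0.3%), 6 of them at the adjusted p. Lyz2 differed by 0.72 in male and 2.11 in female controls, and Lrrc7, a postsynaptic density protein, by -0.31 and 0.28, and Pcdhgb5 by -0.53 and 0.04. These 3 passed the unadjusted p for the interaction but not the adjusted one. The interaction was called neither for C4b nor for Ighm. The 6 genes at the adjusted p were not called in male controls. Of these, 5 lie within chromosome 4 from 42114817 to 42242685 (Gm5859, Gm17167, Gm13301, Gm13304 and Gm10600) and were at 0.104 CPM or less in every old female control, while the old male controls had 5.62 to 18.8 CPM and the young of both sexes 3.62 to 29.6 CPM. These neighbouring genes need not be independent results, and 53.6% of the exon bases of Gm13301 lie in Gm17167. What sets the old females apart in this segment was not tested. Ide, the insulin-degrading enzyme on chromosome 19, was at 30.6 to 34.7 CPM in old females against 67.1 to 74.98 CPM in old males and 47.7 to 69.8 CPM in the young. The count of interaction calls was 22 without young male replicate 2, 23 without old male replicate 1, 53, 120 and 66 without young female replicates 1, 2 and 3 and 58 without old female replicate 4.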

How the data were processed

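Hippocampal poly(A) RNA was sequenced by the authors in 47 libraries, of which the 8 male controls carry the main comparison. The deposited table holds CPM values that the authors made from gene counts by TMM scaling of library sizes. The submitters' processing notes name STAR and Partek, with alignment to mm10, and how reads of overlapping genes or of either strand were counted was not given in the sources used here, and values were whole multiples of 1 read (within 0.05 reads) for 80.6% to 83.8% of those worth under 1000 reads, too few to recover counts, so no count test was run. All value columns matched a labelled sample, leaving 0 without one.

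Differences were fitted on log2(CPM + 1) with limma 3.58.1 (R 4.3.3, package data.table at version 1.17.8), with a variance trend and no covariate, over genes averaging 5 CPM or more. A call is an unadjusted p below 0.01, and adjusted p-values are Benjamini-Hochberg over all genes tested. The interaction of age and sex was fitted on the 16 control libraries. Tables and figures used Python 3.11.15, numpy 2.4.6, pandas 2.3.3, scipy 1.17.1 and matplotlib 3.10.9. The fit was tested on values simulated from each gene's mean and SD in male controls. It called 42% of genes changed by 0.25 on the log2 scale and 90% of those changed by 0.5, in the right direction. A gene that was not called may therefore still have changed by a small amount. GC content and exon overlap came from GENCODE vM21 on GRCm38, and the GC correction removed from each library a lowess trend of span 0.3 over 11582 genes. Named genes are the 12 largest calls in each direction that averaged 10 CPM or more without overlap of the groups, the called members of 48 gene lists (or, with none called, the member of lowest p), and the genes the study singled out. A named gene of the interferon list is not reported here. Genes outside this rule that are named were chosen after their values were seen, among them Dcx, Zc3hav1, Gfap, Serpina3n and Dcn. The members and lists were chosen with earlier results of these data known.

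The alternatives tried were pseudocounts of 0.1 and 5, other filters on low values, an unmoderated F test, all 12 groups in 1 fit, another scaling, corrections for GC content and transcript length, a replicate block and leaving out each library.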

Additional observations from a re-analysis of the deposited data

Results flagged for a closer look

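Among 274 groups of 4 libraries examined for the named genes, 12 had a library apart from the other 3, its ratio of gap to range lying above Dixon's 95% critical value. Chance alone gives such a library in about 1 of 20 groups. In young male controls the ratio was 0.887 for C4b, where replicate 4 had 55.9 CPM against a median of 44.2 CPM in the others, and 0.853 for Ighm, where replicate 1 had 6.38 CPM against 8.28 CPM. It was 0.869 for Igf2 (replicate 1, 189.8 against 44.2 CPM), 0.845 for Lyz2 (replicate 2, 6.91 against 4.75 CPM), 0.83 for Neto1 (replicate 4, 74.8 against 70.1 CPM) and 0.847 for Cspg4 (replicate 2, 33.3 against 31.3 CPM). In old male controls it was 0.852 for Trem2 (replicate 1, 13.04 against 10.6 CPM), 0.844 for Homer1 (replicate 1, 73.95 against 67.4 CPM), 0.832 for Stat3 (replicate 2, 47.5 against 46.3 CPM) and 0.889 for Pcdhb13 (replicate 1, 8.19 against 6.70 CPM). Ttr, the transthyretin of choroid plexus, stood apart in both groups, at a ratio of 0.933 in young replicate 1 (4548 against 161 CPM) and 0.88 in old replicate 3 (30.7 against 4.27 CPM).

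The change with age differed between male and female controls for 3 of 137 named genes at an unadjusted p below 0.01 for the interaction in limma, none of them at the adjusted p. Male minus female on the log2 scale was -1.39 for Lyz2, -0.59 for Lrrc7 and -0.57 for Pcdhgb5.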

How the results depend on the processing

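Pseudocounts of 0.1 or 5, the filter over all 47 libraries, the other scaling, the length correction and the fit of 12 groups kept the counts of higher and lower calls within 1.5 times of 396 and 587. The genes called were not all the same, and the fit of 12 groups called 241 of the 396 and 386 of the 587 again. Without a filter on low values 624 genes were higher, 188 had an interaction, and 91.8% and 90.9% of the male calls had the same sign in female controls and on day 1. Above 50 CPM the counts were 88 higher, 313 lower and 3 for the interaction, over fewer genes, and the shares 97.5% and 98.8%. With the unmoderated F test the shares were 94.3% and 93.8%. After GC correction the counts were 209, 216 and 58, the shares 86.8% and 91.8%, and Agap2 turned to 0.017. Calls in female controls and on day 1, 165 and 399, were 471 and 634 without a filter, 28 and 129 above 50 CPM, 721 and 205 with 12 groups in 1 fit, and 77 to 265 and 208 to 665 without single libraries. Leaving out single libraries gave 223 to 486 higher, 308 to 677 lower and 22 to 120 interaction calls, with shares of 89.7% to 97.4% in females and 91.7% to 97.6% on day 1. The causes were not tested. Of 137 named genes, 115 were called, 69 of them without every library and 75 after GC correction. Calls at the adjusted p, 33 and 40, were 19 and 12 with the F test, 14 and 2 after GC correction, 142 and 289 with the length correction, 51 and 84 with the other scaling, 15 and 4 without a filter, and 35 and 88 above 50 CPM.

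Young and old mice share replicate numbers but not animals. Deviations of same-numbered samples had correlations of mixed sign (0.10, -0.27, -0.11 and 0.37), and 2 of 4 samples were closest to their own number. With so few pairs it cannot be decided whether the numbers carry a pairing. With a replicate block 366 genes were higher and 554 lower (15 and 5 at the adjusted p), and the interaction was called for 33. With it 252 genes were called on day 1.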

Other observations

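Some values fall outside the lists above. The 8 T cell markers each averaged below 1 CPM, and their summed level was 0.12 to 0.33 CPM in young and 0.69 to 1.32 CPM in old libraries, without overlap. The 22 genes called higher with age in male controls, female controls and males on day 1 were chosen here after their values were seen. They were C4b, Ighm, Zc3hav1, Il33, Ctss, Mpeg1, Trem2, Gpnmb, Hapln2, Pmp22, Anln, Aspa, Ermn, Pcdhb3, Pcdhb5, Pcdhb9, Pcdhga2, Pisd, Pisd-ps1, Pisd-ps2, Abca8a and Pls1. Of these, Mpeg1, Aspa and Pls1 overlapped between young and old male controls and were not called there after GC correction, at 0.43, 0.34 and 0.30 on the log2 scale. The 7 called lower in all 3 were Nhsl1, Dpysl3, Dpysl5, Acta2, Myo16, Gpr17 and Myh11. Pisd itself was at 57.6 to 61.4 CPM in young and 76.8 to 96.9 CPM in old male controls.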
